A study of Drosophila melanogaster with 8 samples.

Results

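The genes described here are 10 components of the epidermal growth factor receptor (EGFR) pathway of Drosophila melanogaster, out of 13776 genes in the deposited tables. They are the ligand genes grk, spi and vn, the ligand-processing gene rho, the receptor gene Egfr, the adaptor gene rau, the transcription factor gene pnt, and the inhibitor genes aos, sty and kek1. Members were chosen by their FlyBase symbols, and the choice was made with the read counts and the TPM (each gene's length-corrected share of a library's transcripts) of the compared libraries already known, so that their differences between groups are given as a description and carry no p-value. All 10 had enough counts to enter the fit. The files give them as FBgn0001137 (grk), FBgn0005672 (spi), FBgn0003984 (vn), FBgn0004635 (rho), FBgn0003731 (Egfr), FBgn0031745 (rau), FBgn0003118 (pnt), FBgn0004569 (aos), FBgn0014388 (sty) and FBgn0015399 (kek1).

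In the ovary, the oocyte makes the TGF-alpha-like ligand Gurken from grk mRNA that moves with the oocyte nucleus, and the receptor on the overlying follicle cells reads it. Signalling through Ras and the MAP kinase then sets first posterior and later dorsal follicle cell fates. The follicle cells answer by switching on genes of the pathway itself, among them rho, which frees further ligand, and the feedback inhibitors aos, sty and kek1.

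RNA-seq of whole ovaries compared 2 libraries labelled HP1a knockdown, F1 females of the cross tj-Gal4 x HP1a RNAi, with 2 control libraries, F1 females of tj-Gal4 x #60000 (VDRC, the Vienna stock collection). Flies of both groups were 0 to 4 days old, and each library was made from poly(A)+ RNA of about 100 ovaries. The tj-Gal4 driver is active in somatic cells of the ovary, among them the follicle cells, and both groups carry it. The line crossed to it differs between groups and its effect cannot be told apart from that of the knockdown. The series also holds DamID samples, 2 of Dam-HP1 and 2 of Dam only, which are not analysed here.

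Counts summed to 18671653 and 38330979 in knockdown 1 and knockdown 2, and to 20633184 and 21862077 in control 1 and control 2. Over 8798 tested genes, 1040 were called higher (11.8%) and 1415 lower (16.1%) in the knockdown libraries by edgeR's quasi-likelihood test at a Benjamini-Hochberg adjusted p of 0.05. Higher genes made up 42.4% of these calls, against 71.2% when libraries were scaled by size alone and 86.9% with limma-trend on TPM. The transcript of HP1a itself (FBgn0003607) stood at 224 and 236 CPM in the knockdown libraries and at 253 and 228 CPM in the controls (log2 fold change -0.06, SE 0.11, edgeR adjusted p = 0.677). The labelled knockdown was thus not seen in whole-ovary RNA. This RNA mixes germline cells with the somatic cells where the driver is active, and somatic levels were not measured apart. CPM are counts relative to the library total after scaling by the trimmed mean of M values (TMM).

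Of the 10 members, 6 were called lower in the knockdown libraries (grk, Egfr, rau, pnt, sty and kek1) and 0 higher, where 16.1% and 11.8% of all tested genes were called. The contrast was known when the members were chosen, so nothing is read from this count. The median log2 fold change of the 10 was -0.99, beside 0.02 for all tested genes. CPM of the groups did not overlap for 9 members, with 7 lower and 2 higher in the knockdown libraries, where 37.7% and 39.3% of tested genes were lower and higher without overlap. The overlap was in aos. In bulk RNA, fewer cells of a type and less RNA per cell cannot be told apart.

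**Figure D1:**
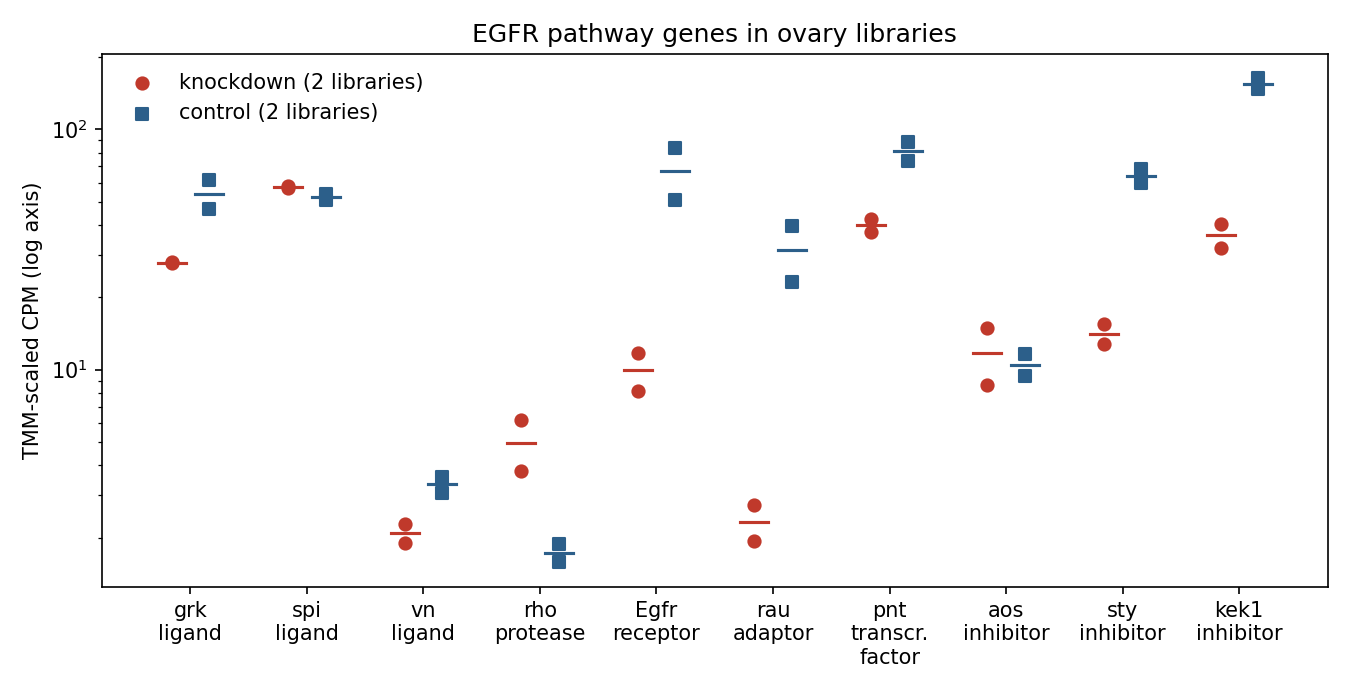
TMM-scaled CPM of each member in each library on a log axis, with knockdown libraries as circles left of control squares and a bar at each group's mean. Egfr, rau, sty and kek1 lie well below the controls in both knockdown libraries, rho lies above, and aos overlaps.

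Of the 3 ligand genes, only grk was called. The germline ligand gene grk had 579 and 1129 counts in knockdown 1 and knockdown 2, or 28.0 and 27.7 CPM, against 1165 and 934 counts, or 61.3 and 46.4 CPM, in control 1 and control 2. Both knockdown libraries were below both controls, and the controls differed more from each other than the knockdown libraries did. The log2 fold change was -0.95 (SE 0.18), or 1.93-fold lower.

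The gene spi encodes Spitz, the main TGF-alpha-like ligand of the fly outside the oocyte. It stood at 58.0 and 57.2 CPM in the knockdown libraries and at 50.9 and 53.9 CPM in the controls. The groups were close without overlapping, with a log2 fold change of 0.14 (SE 0.12), and spi was not called. The neuregulin-like ligand gene vn was scarce, with 47 and 77 counts in the knockdown libraries (2.28 and 1.89 CPM) and 68 and 62 in the controls (3.58 and 3.08 CPM). Its 95% counting intervals were 34.5 to 62.5 and 60.8 to 96.2 counts in the knockdown libraries, and 52.8 to 86.2 and 47.5 to 79.5 in the controls. Its log2 fold change of -0.68 (SE 0.38) was not called.

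TPM corrects for transcript length and allows levels of different genes to be compared within a library. Such levels rest on the deposited lengths, 472 to 570 nt for spi and 1718 nt for grk. In the knockdown libraries spi stood at 60.6 and 56.2 TPM and grk at 26.6 and 25.3 TPM, while in the controls spi stood at 37.5 and 40.5 TPM and grk at 38.9 and 30.3 TPM. The ratio of spi to grk was therefore 2.28 and 2.22 in the knockdown libraries, against 0.965 and 1.34 in the controls, with no overlap. Ratios within a library do not depend on how libraries are scaled. The level of vn was 0.654 and 0.539 TPM in the knockdown libraries and 0.688 and 0.634 TPM in the controls, the lowest of the ligand genes in all 4 libraries.

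The gene rho encodes Rhomboid, the intramembrane protease that cleaves Spitz and whose expression in dorsal anterior follicle cells marks the appendage primordia. It was the one member with a log2 fold change above 1. It had 127 and 154 counts in the knockdown libraries and 30 and 38 in the controls, with 95% counting intervals of 106 to 151 and 131 to 180 counts in the knockdown libraries and 20.2 to 42.8 and 26.9 to 52.2 in the controls. In CPM the values were 6.15 and 3.78, against 1.58 and 1.89, so that both knockdown libraries were higher and also lay further apart. The log2 fold change was 1.51 (SE 0.42). The gene was not called with all 4 libraries and TMM scaling, and was called higher in 4 of 12 alternatives (library size alone, the replicate number as a block, DESeq2 and limma-trend on TPM). It was not called without any single library, where the log2 fold change ran from 1.14 to 1.84. Its ratio to Egfr in TPM was 1.82 and 0.769 in the knockdown libraries and 0.0446 and 0.0905 in the controls.

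The receptor gene Egfr had 169 and 479 counts in the knockdown libraries and 1584 and 1019 in the controls. In CPM this was 8.18 and 11.8, against 83.3 and 50.6, so that the highest knockdown value was far below the lowest control value. The log2 fold change was -2.74 (SE 0.32), or 6.68-fold lower.

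The gene rau encodes a Ras-binding adaptor protein that sustains signalling from receptor tyrosine kinases in the developing eye. It had the largest log2 fold change of the 10 members, with 40 and 111 counts in the knockdown libraries and 749 and 467 in the controls. The values were 1.94 and 2.72 CPM, against 39.4 and 23.2 CPM, and the log2 fold change was -3.73 (SE 0.36), or 13.2-fold lower. The ratio of rau to Egfr in TPM was 0.674 and 0.656 in the knockdown libraries and 1.34 and 1.29 in the controls. Within each group the ratio was nearly the same in both libraries, and between groups it differed 1.97-fold.

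The ETS transcription factor gene pnt, which carries the MAP kinase signal to target genes, changed less than the receptor. It stood at 37.4 and 42.3 CPM in the knockdown libraries and at 88.5 and 74.0 CPM in the controls, with a log2 fold change of -1.03 (SE 0.15), or 2.04-fold lower. Its ratio to Egfr in TPM was accordingly 7.14 and 5.55 in the knockdown libraries, against 1.69 and 2.35 in the controls.

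Of the 3 feedback inhibitor genes, sty and kek1 were called lower and aos was not called. The gene kek1 encodes a leucine-rich repeat protein that binds the receptor and limits it in follicle cells. It was the most abundant member in CPM in the controls, with 32.0 and 40.5 CPM in the knockdown libraries, against 163 and 147 CPM in the controls. The log2 fold change was -2.09 (SE 0.16), or 4.27-fold lower. The gene sty, for the intracellular inhibitor Sprouty, stood at 12.7 and 15.5 CPM, against 68.4 and 59.5 CPM, with a log2 fold change of -2.18 (SE 0.17), or 4.53-fold lower. Both genes were far lower in each knockdown library than in either control.

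The gene aos encodes Argos, a secreted protein that sequesters Spitz. It stood at 8.67 and 14.9 CPM in the knockdown libraries and at 9.36 and 11.6 CPM in the controls. The knockdown libraries enclosed both controls, and the log2 fold change was 0.17 (SE 0.33). Without knockdown 2 it was -0.26, and without knockdown 1 it was 0.53. The ratio of aos to sty in TPM was 0.881 and 1.27 in the knockdown libraries and 0.182 and 0.255 in the controls. The ratio of aos to kek1 was 0.584 and 0.790, against 0.124 and 0.170. The balance of the inhibitor transcripts differed 4.90-fold and 4.69-fold between the groups, without overlap.

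**Figure D2:**
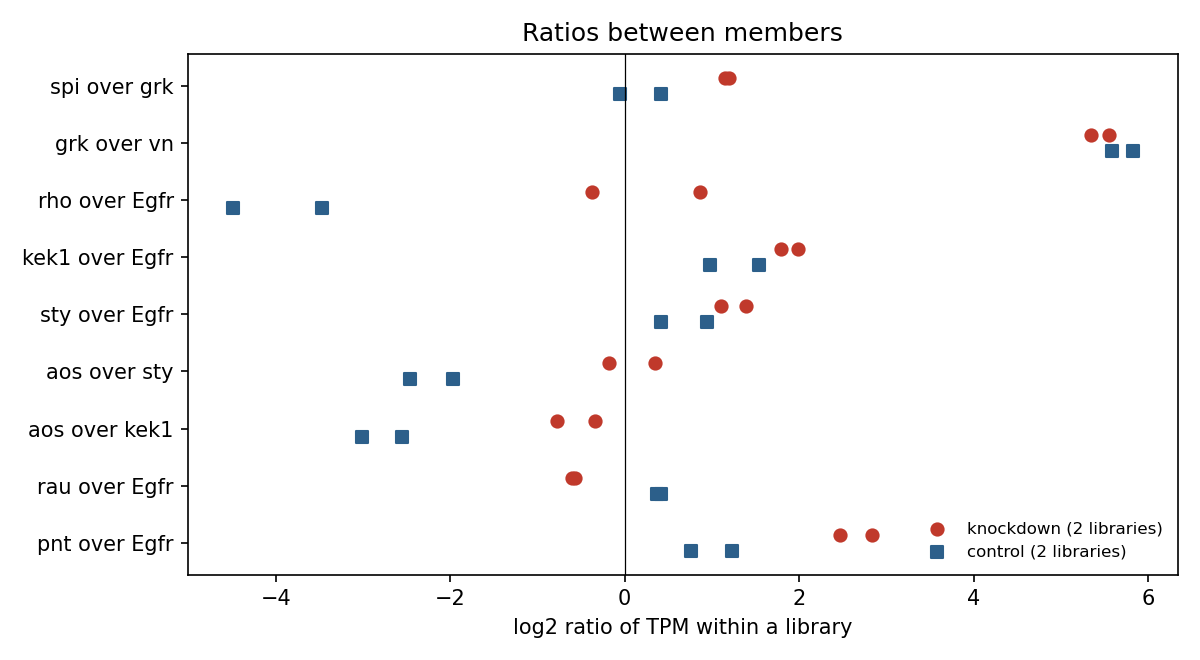
Log2 ratios of TPM between pairs of members within each library, with knockdown libraries as circles above control squares. Ratios of rho, pnt, kek1 and sty to Egfr were higher in the knockdown libraries, that of rau to Egfr was lower, and those of aos to sty and to kek1 were higher. Directions relative to Egfr follow from its own fall (log2 fold change -2.74), which only rau exceeded. Log2 ratios to Egfr also differed between control 1 and control 2, at 0.97 and 1.54 for kek1 and 0.41 and 0.95 for sty.

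The order of levels in TPM changed accordingly. In both knockdown libraries the highest members were spi, grk, pnt and kek1, in that order. In the controls spi and grk came first with their order changed between libraries, and kek1 stood above pnt (27.4 and 25.4 TPM, against 23.6 and 20.6 TPM). The levels of rau and sty were close in control 1 (18.7 and 18.6 TPM). The lowest members in the knockdown libraries were rho or Egfr, rau and vn, with rho at 3.69 and 2.18 TPM, Egfr at 2.03 and 2.84 TPM and rau at 1.37 and 1.86 TPM. In the controls rho and vn were lowest, with rho at 0.623 and 0.794 TPM, and these neighbours changed places between libraries.

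Sizes also depended on the scale. On the log2(TPM + 1) scale, where the median of all tested genes was 0.50 higher in the knockdown libraries and the added 1 understates differences of low genes, the differences were -0.39 for grk, -0.52 for pnt, 0.57 for spi and -0.06 for vn. There grk and pnt were not called and spi was called higher. The calls of grk and pnt were also lost without knockdown 1 or without knockdown 2, with log2 fold changes of -0.94 and -0.93 for grk and -0.92 and -1.10 for pnt. The other members called lower (Egfr, rau, sty and kek1) were called under all 12 alternatives. Their log2 fold changes ran from -3.02 to -1.83 for Egfr, from -4.01 to -2.58 for rau, from -2.31 to -1.48 for sty and from -2.26 to -1.47 for kek1. All alternatives refit the libraries whose values were known when the members were chosen. A call kept or gained by any member, rho included, is therefore no further support.

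**Figure D3:**
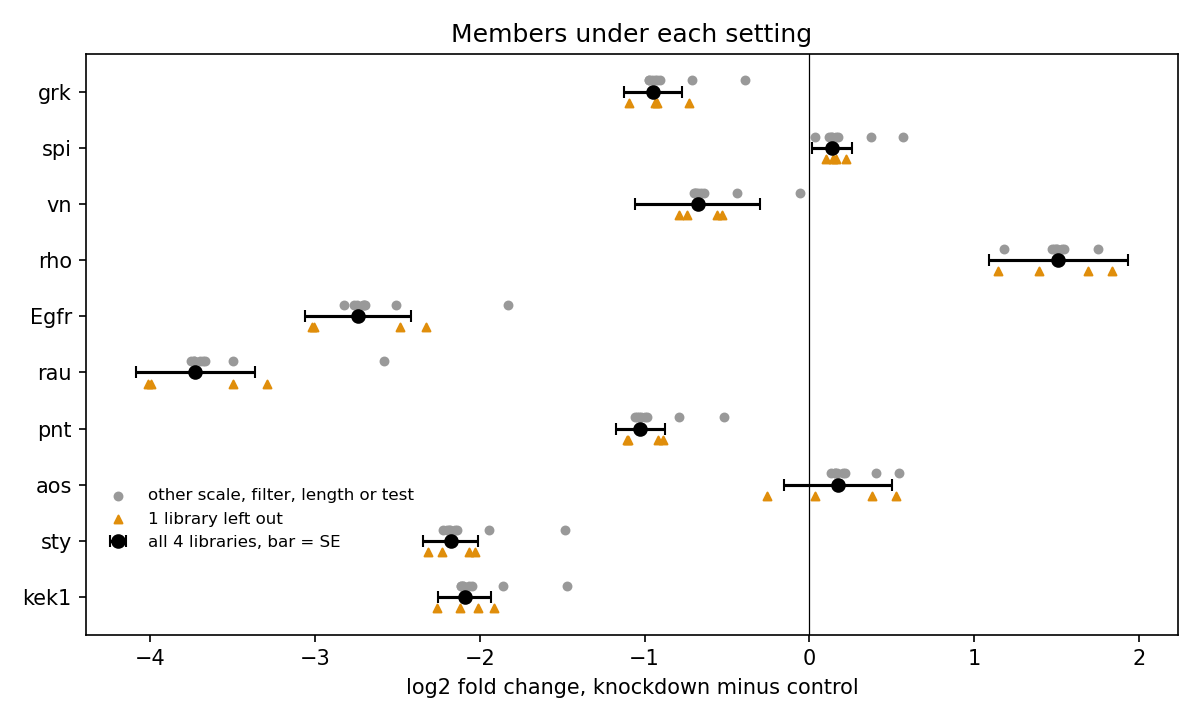
Log2 fold changes (knockdown minus control) of the members with all 4 libraries (black, bar = SE), under other scales, filters, length corrections or tests (grey) and with 1 library left out (orange). Of the 10 members only aos turned its sign in any of these fits, without knockdown 2.

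Libraries of a group differed within it as well. Between libraries numbered 1 and 2, Egfr was lower in knockdown 1 than in knockdown 2 (log2 difference -0.52) and higher in control 1 than in control 2 (0.72), and rau did the same (-0.49 and 0.77). In all, 3 of 10 members (grk, aos and vn) differed in the same direction between the numbered libraries of both groups. For aos the log2 differences were -0.78 and -0.30.

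Markers of ovarian cell types were compared beside these values. Of all tested genes, 16.1% were called lower and 11.8% higher. Of 16 follicle cell markers, 12 were lower, 0 higher and 4 not called (median log2 fold change -3.19), and their summed level was 698 and 782 CPM in the knockdown libraries and 1575 and 1314 CPM in the controls. None of the 16 was at 0 in any library. The 4 that were not called (ttk, dome, Fas3 and Mmp1) made up 615 and 658 CPM of these sums in the knockdown libraries and 615 and 688 CPM in the controls. The 12 called lower summed to 82.2 and 124 CPM, against 961 and 626 CPM. The follicle cell regulator gene tj, after which the driver is named, stood at 9.92 and 25.9 CPM, against 244 and 168 CPM. The part of these differences in the values of the members was not tested.

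Relative to tj, the level of rau was 0.195 and 0.105 in the knockdown libraries and 0.162 and 0.138 in the controls, so that the groups overlapped. All other members were higher relative to tj in both knockdown libraries than in the controls. That direction follows from the fall of tj itself (log2 fold change -3.51), which only rau exceeded, so nothing is read from it. Egfr stood at 0.824 and 0.454, against 0.342 and 0.301, and kek1 at 3.22 and 1.57, against 0.669 and 0.871. Values relative to summed markers depended on which markers were summed. Relative to all 16, most of whose sum in the knockdown libraries came from genes that were not called, Egfr, rau, sty, kek1 and pnt were lower without overlap and grk overlapped, while rho, aos, spi and vn were higher. Per 100 CPM of these markers, kek1 was at 4.58 and 5.18 CPM in the knockdown libraries and at 10.4 and 11.2 CPM in the controls, and sty at 1.83 and 1.98 CPM, against 4.34 and 4.53 CPM. On this measure pnt was lower by little, at 5.37 and 5.41 CPM, against 5.62 and 5.63 CPM. Relative to the 12 markers called lower, a denominator chosen after seeing the data and by its own fall, the direction turned for Egfr, sty, kek1 and pnt, and only rau was lower. Per 100 CPM of these 12, kek1 was at 38.9 and 32.6 CPM in the knockdown libraries and at 17.0 and 23.4 CPM in the controls. Egfr was at 9.95 and 9.45 CPM, against 8.68 and 8.08 CPM, and sty at 15.5 and 12.4 CPM, against 7.12 and 9.51 CPM. For rau the values were 2.35 and 2.19 CPM, against 4.10 and 3.71 CPM.

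Of 14 germline markers, 4 were higher, 2 lower and 8 not called (median log2 fold change 0.13). Their sum was 8031 and 8148 CPM in the knockdown libraries and 7910 and 8048 CPM in the controls, and scaling to it changed no call among the members. These close sums hold opposite differences. Within them CycB stood at 3004 and 3031 CPM, against 1795 and 2348 CPM, and osk at 1296 and 1402 CPM, against 2285 and 1748 CPM. Both were named after their values were seen, and neither was called. The called markers were bam, bcd, AGO3 and gcl (higher, log2 fold changes 1.77, 1.18, 0.82 and 0.67) and aub and pum (lower, -1.13 and -0.60). Per 100 CPM of germline markers, grk was at 0.349 and 0.340 CPM, against 0.775 and 0.576 CPM, so that it remained lower without overlap.

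Eggshell transcripts, which mark late egg chambers, varied within the groups, and their sum was lower in both knockdown libraries than in both controls. The sum of 16 such genes was 1214 and 8683 CPM in knockdown 1 and knockdown 2, and 10170 and 34980 CPM in control 1 and control 2, with 1 lower, 0 higher and 15 not called (median log2 fold change -1.99). The vitelline membrane genes (Vm26Aa, Vm26Ab, Vm26Ac, Vm32E, Vm34Ca, psd and Vml) were lower without overlap, with log2 fold changes from -3.51 to -2.41. Of these only Vm26Ab was called, and 37.7% of all tested genes were lower without overlap. The chorion genes (Cp) overlapped between groups. The libraries that were low in the eggshell sum within their group were also those low in aos. Ovarian sheath muscle markers had 1 lower, 0 higher and 8 not called of 9 tested (median -0.48) and summed to 1544 and 1419 CPM, against 2585 and 1515 CPM. Hemocyte markers had 2 higher, 0 lower and 5 not called of 7 tested (median 1.18). They summed to 453 and 413 CPM, against 400 and 309 CPM, with He at 0 in all 4 libraries. The sum mixes directions. Pxn and crq were called higher (log2 fold changes 1.74 and 0.99), while Ppn and srp had -0.97 and -0.93 and were not called. Neural markers had 1 lower, 0 higher and 4 not called of 5 tested (median -0.70). Fat body markers had 1 lower, 0 higher and 1 not called of 2 tested (median -0.05). The sums were 31.1 and 34.4 CPM, against 84.8 and 53.1 CPM, for neural and 21.0 and 6.55 CPM, against 8.84 and 5.66 CPM, for fat body markers, where Fbp1, Fbp2 and Lsp1alpha were at 0 in at least 1 library. Without CadN, the one neural marker called, the neural sum was 29.8 and 32.2 CPM in the knockdown libraries and 33.7 and 29.2 CPM in the controls, with overlap. The part of these lists in the values of the members was not tested.

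Other genes around the pathway were taken from 6 lists, with members left out. These lists were drawn up with earlier results of these data known, so their counts and shares are a description. From each list the genes of lowest adjusted p are named, so their p-values are no independent support. Over the 81 tested genes of these lists, 13 were higher and 17 lower (16.0% and 21.0%), beside 11.8% and 16.1% of all tested genes, and the median log2 fold change was 0.06, beside 0.02. The lists differed among themselves, and the counts of each list stand beside the same shares of all tested genes.

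Follicle cell patterning genes included the largest falls of the 6 lists. Of 12 tested, 7 were lower (58.3%) and 0 higher, beside 16.1% and 11.8% of all tested genes. As the list was chosen with earlier results known, nothing is read from this share. The median log2 fold change was -2.44, and this list shares mirr with the follicle cell markers above. The Iroquois gene mirr, a dorsal anterior target of Gurken signalling, had 3.92 and 6.46 CPM in the knockdown libraries and 77.4 and 46.9 CPM in the controls (log2 fold change -3.56, SE 0.37, edgeR adjusted p = 0.0217). The T-box gene mid, which acts in ventral follicle cells, stood at 4.26 and 5.23 CPM, against 34.7 and 28.6 CPM (log2 fold change -2.73, SE 0.21, edgeR adjusted p = 0.0217). For both genes the highest knockdown value lay far below the lowest control value.

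The glycosyltransferase gene fng, which modifies Notch, stood at 4.65 and 5.20 CPM, against 23.9 and 20.0 CPM (log2 fold change -2.15, SE 0.21, edgeR adjusted p = 0.0217). The glypican gene dally stood at 11.9 and 14.4 CPM, against 119 and 85.2 CPM (log2 fold change -2.96, SE 0.22, edgeR adjusted p = 0.0217). These 4 genes were called lower under all 12 alternatives. The other calls on the list, named after their values were seen, were pip, ndl and wbl (log2 fold changes of -2.75, -2.95 and -3.44), which act in follicle cells to set the embryo's ventral side. All 3 differed widely between the knockdown libraries, with pip at 0.242 and 1.23 CPM, against 5.37 and 5.01 CPM, ndl at 9.92 and 53.3 CPM, against 214 and 278 CPM, and wbl at 0.484 and 2.99 CPM, against 21.0 and 18.5 CPM. The summed eggshell transcripts above were likewise lower in knockdown 1 than in knockdown 2. They were also lower in control 1 than in control 2, where ndl went the same way and pip and wbl slightly the other way. The part of the eggshell transcripts in these values was not tested. The number called lower on this list was 4 without control 1, with a median of -2.30.

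Genes of the Ras and MAP kinase cassette, most of which transmit the signal in many cell types, included small rises. The list also holds genes that restrain the signal, among them RasGAP1, vap, Nf1 and sl. Of 19 tested, 6 were higher and 1 lower, with a median log2 fold change of 0.34. The adaptor gene drk stood at 135 and 139 CPM in the knockdown libraries and at 92.6 and 89.7 CPM in the controls (log2 fold change 0.59, SE 0.10, edgeR adjusted p = 0.0254). The GTPase gene Ras85D stood at 154 and 161 CPM, against 105 and 117 CPM (log2 fold change 0.51, SE 0.12, edgeR adjusted p = 0.0352). Both rises were small beside the falls of Egfr and rau, and the groups did not overlap.

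The scaffold gene dos rose 1.43-fold (edgeR adjusted p = 0.0299) and the phospholipase C gamma gene sl 1.44-fold (edgeR adjusted p = 0.0314). The remaining calls, named after their values were seen, were the kinase genes Raf (0.50) and rl, the MAP kinase gene itself (0.61), and the lower 14-3-3zeta (-0.65). No gene of this list was called without knockdown 1 or without knockdown 2, where the medians were 0.38 and 0.32. Without control 2 there were 11 higher and 1 lower, and 13 were higher and 0 lower with library size alone.

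Of 5 tested genes for other ligands and ligand processing, 1 was higher and 0 lower (median 0.12). This was the rhomboid family gene rho-4, at 110 and 120 CPM in the knockdown libraries and 77.6 and 85.3 CPM in the controls (log2 fold change 0.50, SE 0.12, edgeR adjusted p = 0.0383), and its call was lost without knockdown 1 or without knockdown 2. The genes cni (0.14, edgeR adjusted p = 0.422), needed to export Gurken from the endoplasmic reticulum, Star (S; -0.09, edgeR adjusted p = 0.518), an export factor for Spitz, and stet (0.10, edgeR adjusted p = 0.544), a germline rhomboid, were not called, although all 3 were called higher with limma-trend on TPM (0.65, 0.52 and 0.62).

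Among 14 tested genes on the list of negative regulators outside the members, 3 were higher and 1 lower (median 0.06). The ubiquitin ligase gene Cbl, which sends the receptor to degradation, rose 1.54-fold (edgeR adjusted p = 0.0318), at 257 and 268 CPM, against 155 and 186 CPM. The MAP kinase phosphatase gene PTP-ER rose 1.40-fold (edgeR adjusted p = 0.0409). The gene ebi, which is on this list although it promotes output of the receptor, rose 1.49-fold (edgeR adjusted p = 0.0301). Socs36E, an inhibitor induced by JAK/STAT signalling that also dampens EGFR, stood at 14.5 and 7.56 CPM, against 39.7 and 23.5 CPM (log2 fold change -1.53, SE 0.41, edgeR adjusted p = 0.0473). Each of the 3 rises lost its call without knockdown 1 or without knockdown 2, and Socs36E lost its call without knockdown 2, without control 1, with library size alone and with limma-trend on TPM.

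Genes that localize or translate gurken mRNA were tested beside grk. Of 18 tested, 2 were higher and 5 lower, and the median log2 fold change was -0.14 (0.09 with library size alone and 0.43 with limma-trend on TPM). The hnRNP gene glo fell 1.68-fold (edgeR adjusted p = 0.0321), the Piwi family gene aub 2.18-fold (edgeR adjusted p = 0.0295) and the exon junction gene tsu 1.61-fold (edgeR adjusted p = 0.0416), while the helicase gene spn-E rose 1.56-fold (edgeR adjusted p = 0.0264). In CPM, aub stood at 83.4 and 68.5 in the knockdown libraries and at 198 and 134 in the controls, and spn-E at 163 and 178, against 104 and 114. No gene of this list was called without knockdown 1 or without knockdown 2. With limma-trend on TPM 10 were higher and 0 lower. The call of tsu was also lost with library size alone and without the filter on low counts, and its log2 fold change was -0.50 without control 1.

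Of 13 tested genes for other receptor tyrosine kinases and their ligands, 1 was higher and 3 lower (median 0.12). The ligand gene pyr stood at 7.60 and 6.80 CPM in the knockdown libraries and at 32.3 and 24.2 CPM in the controls (log2 fold change -1.97, SE 0.22, edgeR adjusted p = 0.0217). The receptor gene sev stood at 10.3 and 15.7 CPM, against 43.1 and 45.7 CPM (log2 fold change -1.76, SE 0.23, edgeR adjusted p = 0.0218). These falls were called under all alternatives. The ligand gene bnl, for the tracheal FGF receptor, fell 2.42-fold (edgeR adjusted p = 0.0459), and Pvf1, for a ligand that guides border cells, rose 1.63-fold (edgeR adjusted p = 0.0344). Both calls were lost without knockdown 1, without knockdown 2 and without control 1, and that of bnl also without control 2, with library size alone, without the filter on low counts, with effective lengths and with limma-trend on TPM.

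**Figure D4:**
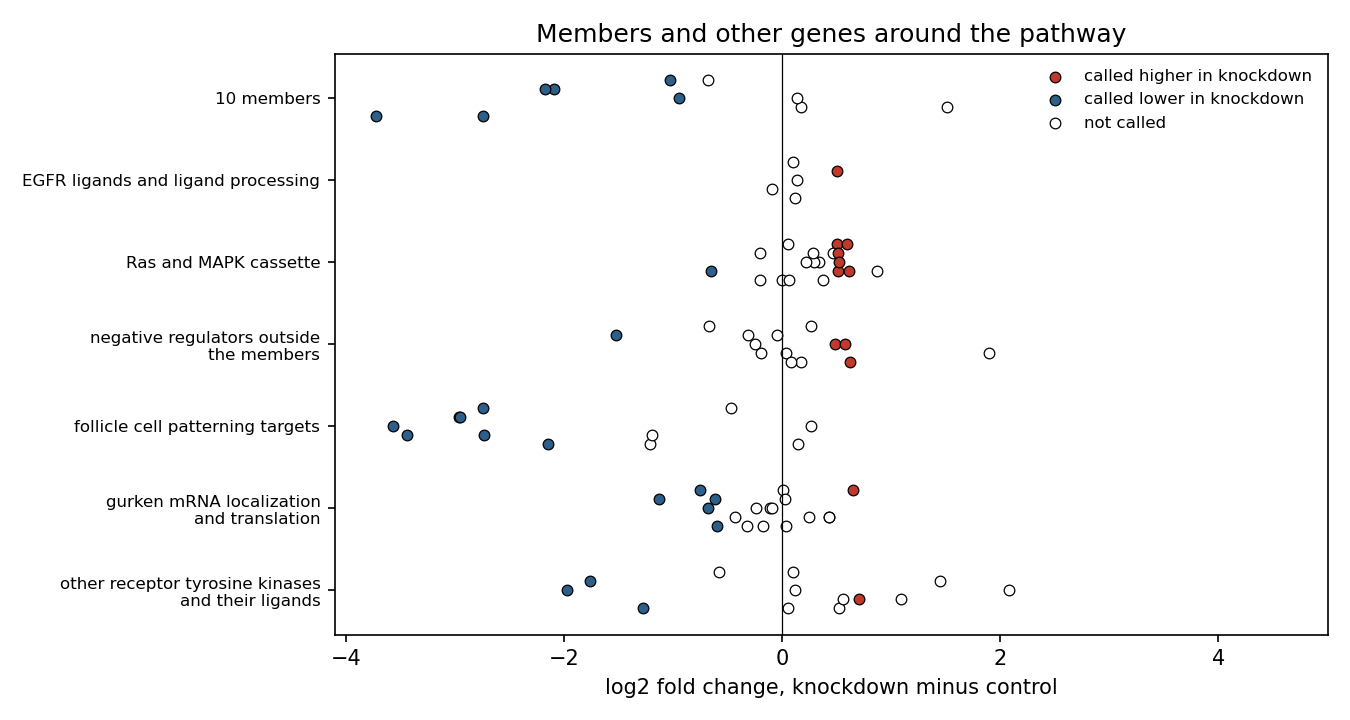
Log2 fold changes (knockdown minus control) of the 10 members and of tested genes on the other 6 lists, 1 point a gene, with called genes filled and vertical offsets only to separate points. Called patterning targets lie between -3.56 and -2.15, whereas those of the Ras and MAPK cassette lie between 0.50 and 0.61 apart from 1 lower gene at -0.65.

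The members lie on several chromosome arms. In the Release 6 gene table, 4 lie on 2L (grk, spi, kek1 and rau), 4 on 3L (rho, aos, sty and vn), 1 on 3R (pnt) and 1 on 2R (Egfr). The nearest tested gene on either side of each member was taken in that order. Of 12 such neighbours of the 6 members called lower, 1 was lower, 2 were higher and 9 were not called, beside 16.1% lower and 11.8% higher of all tested genes. Of those not called, and named after their values were seen, CG30287 (log2 fold change -2.29, edgeR adjusted p = 0.0654), Ids (-2.17, edgeR adjusted p = 0.0560) and CG6763 (-1.91, edgeR adjusted p = 0.0502) lay close to the threshold. The rhomboid gene stet lies next to rho, and its values were given above. The deposited transcript length, weighted over isoforms, was the same in all 4 libraries for grk, aos and kek1. For Egfr it was 3551 and 3375 nt in the knockdown libraries and 3347 and 3228 nt in the controls, without overlap, and for spi 472 and 570 nt, against 480 and 504 nt.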

How the data were processed

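The authors deposited Salmon gene tables with expected counts (estimated reads per gene, not normalized), TPM and lengths. The tools HISAT2, HTSeq, Salmon and DESeq2 and the builds dm3 and BDGP5 are named, per the submitters' processing notes, without versions or roles. Per the labels, reads were single-end and 50 nt long. Of 13776 genes, 13484 matched a symbol. Expected counts were rounded and fitted in R 4.3.3 with edgeR 4.0.16 (filterByExpr, 8798 genes kept; TMM; quasi-likelihood F test; Benjamini-Hochberg over all tested genes, threshold 0.05; 2 residual degrees of freedom). SEs were derived from F, as the size of the log2 fold change over the root of F. Counting intervals (95%, exact Poisson) cover counting error only. The labels call the replicates biological without naming separate crosses, so p-values may measure technical spread. Scripts were tested on simulated data with a fixed spread smaller than that of these libraries, so that test does not show how reliable the calls are here.

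Members and lists were chosen with earlier results of these data known. By a fixed rule the text names all members, the HP1a gene and, from each list, up to 4 tested genes of lowest adjusted p. List symbols without a match (phl, cnk, Gap1, br, bwk, vas, Imp, btl, dec-1, nos and wupA) were not analysed here. Alternatives were median-ratio size factors, library size alone, germline marker scaling, no low-count filter, effective length offsets, DESeq2 1.42.0, limma-trend (limma 3.58.1) on log2(TPM + 1), the replicate number as a block, and each library left out. Marker sums over called genes and without CadN were added after seeing the data. The deposited list of HP1 domains is in dm3, and gene positions in that build were not used here, so members were not joined to it.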

Additional observations from a re-analysis of the deposited data

How the results depend on the processing

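Among all tested genes, 2576 were higher with library size alone, 1834 with the replicate number as a block, 1670 with DESeq2 and 4406 with limma-trend on TPM, where 664 were lower. Leaving out 1 library gave 29 to 2540 higher and 191 to 2003 lower. A group then holds a single library, which is assumed to vary like the other group. Members called higher numbered 1 with library size alone, with the replicate block and with DESeq2 (rho in each), and 2 with limma-trend on TPM (rho and spi). Members called lower numbered 6, or 4 with limma-trend on TPM and 4 without knockdown 1 or without knockdown 2. Other pathway genes called higher numbered 26 with library size alone and 47 with limma-trend on TPM, and 0 to 24 with a library left out. Those called lower numbered 11 and 9 under these scales, and 9 to 17 with a library left out. On TPM, the HP1a transcript (0.46) and Star (0.52) turned to higher, where the median of all genes was 0.50. Of 21 named pathway genes that were called, none turned its sign. Without knockdown 1 and without knockdown 2, 0 of 10 rises kept their call, and 7 and 6 of 11 falls did. The labels do not say that replicate numbers mark a shared batch. Differences between libraries 1 and 2 correlated at 0.55 between the groups across genes, which are not independent. Counts were under 100 in all 4 libraries for vn, in both controls for rho and in knockdown 1 for rau.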
